A study of Mus musculus with 24 samples.

Results

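Genes of meiosis and of the germline that retinoic acid can induce were followed in mouse CCE cells and fetal head (FH) by sequencing of RNA depleted of ribosomal RNA. The 10 genes were Rec8, Stra8, Sycp1, Sycp3, Smc1b, Dazl, Ddx4, Mael, Tex101 and Hormad1, out of 22380 protein-coding genes of the GENCODE M1 annotation on mm9. They were selected with the levels of these same libraries in view, so that their values in CCE against FH are given as a description and without a test. CCE is a feeder-independent embryonic stem cell line of the mouse strain 129/SvEv that was differentiated without LIF and with 0.266 uM retinoic acid for 5 days. FH was dissected at 14.5 days postcoitum from wildtype FVB/N embryos and holds many tissues, with brain as the main one. Tissue, strain and retinoic acid therefore differ together between the groups and cannot be told apart. In all, 16 libraries were used, namely 8 CCE and 6 FH libraries made with the RiboMinus kit and 1 library of each tissue made with the Ribo-Zero kit. The RiboMinus libraries came from 4 CCE and 3 FH cDNA preparations, each sequenced at Vienna-IMP and at Nijmegen, and the template was either fragmented as RNA (hydrolysed) or as cDNA (sheared). The preparation FH2 went through 2 rounds of depletion and the others through 1. The CCE preparations are technical replicates and no separate animals are given for FH, so that any spread is that of preparations. The study used both ways of fragmentation on the same depleted RNA. Sheared and hydrolysed preparations of the same number are therefore pairs and not independent. The numbers of the hydrolysed preparations may be crossed between the locations, since the ratio of preparation 1 to 2 went in opposite directions there (r = -0.692 in CCE and -0.499 in FH over coding genes, against 0.649 for sheared CCE), so that values of single hydrolysed preparations, and the spread they enter, hold only if the assignment in the study's table of lanes is right. The Ribo-Zero kit was used once per tissue on a separate RNA, a biological replicate, which was hydrolysed and sequenced at Vienna-CeMM.

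In meiosis, REC8 replaces the mitotic subunit RAD21 in cohesin, the ring complex that holds sister chromatids together. SMC1B and STAG3 are further cohesin subunits of meiosis, and SYCP1 and SYCP3 build the synaptonemal complex between paired chromosomes, to which HORMAD1 binds where pairing is not complete. STRA8 is needed for the entry of germ cells into meiosis and was first found as a gene stimulated by retinoic acid. DAZL and DDX4 are RNA-binding proteins of germ cells, MAEL acts in the piRNA pathway that silences transposons, and TEX101 is a surface protein of germ cells. In somatic cells many of these genes are kept silent by DNA methylation of CpG-rich promoters and by a Polycomb complex that contains E2F6, MGA and MAX, which bind short sequence motifs.

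The 16 libraries held between 920424 and 2473448 unique tags with RiboMinus and 28708715 (CCE) and 48426051 (FH) with Ribo-Zero. Pooled over libraries, RiboMinus gave 13049762 tags in CCE and 9924914 in FH. Levels are RPKM, that is tags in the merged exons of a gene per kb of exon and 1000000 unique tags. At this depth 3 tags, the limit that a count of 0 allows, correspond to an RPKM of 0.0837 for Rec8 in the pooled CCE RiboMinus tags and of 0.0380 in the Ribo-Zero library. Intervals in brackets are exact Poisson or binomial intervals at 95% and cover counting error only, since tags with the same position may be copies of 1 molecule. In bulk RNA fewer cells that express a gene cannot be told apart from less RNA per cell. Markers were read for the identity of the samples. The 7 germ cell markers, of which Dazl and Ddx4 are among the 10 genes, summed to between 6.52 and 8.27 RPKM in the CCE preparations and between 11.3 and 14.4 in FH. The FH sum was mostly that of Kit, Tfap2c and Nanos3, the 3 that were tested, which passed the filter on low values (a mean RPKM over 3 in a tissue) only through their FH level and were called higher there. In Ribo-Zero, by contrast, 3 of the 6 markers over an RPKM of 1 were over 8-fold higher in CCE, beside 3.19% of all coding genes. These were Ddx4 and Dazl, which were selected on this contrast, and Prdm14, at 1.33 RPKM with 0 tags in FH. Nothing is read from that share. The others were Kit, at 6.44 RPKM in CCE and 4.16 in FH, Tfap2c, at 2.32 and 2.30, and Nanos3, at 0.859 and 3.08. Dppa3, a defining marker, had 0 tags in all RiboMinus libraries and 5 tags in CCE Ribo-Zero. The 6 embryonic stem cell markers summed to between 46.5 and 55.0 RPKM in CCE and between 12.0 and 26.1 in FH. Of these 5 were lower in FH, each tested only through its CCE level. Klf4, which is also expressed in differentiated tissues, was higher in FH at 16.2 ± 7.87 against 5.75 ± 2.13 RPKM (limma adjusted p = 0.00977) and made up most of the FH sum. In the single Ribo-Zero libraries Klf4 was about equal, at 2.82 RPKM in CCE and 2.79 in FH. The 9 markers of primitive endoderm summed to between 245 and 308 RPKM in CCE and between 78.4 and 95.2 in FH, with 7 lower and 1 higher in FH, where 34.8% of all genes tested were lower and 20.0% higher. Of these, Gata4, Gata6 and Lama1 were tested only through their CCE level, and Pdgfra, the higher one, only through its FH level. The part of these cell types in the levels below was not tested.

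Rec8 (ENSMUSG00000002324.7, chr14:56236874-56244232, plus strand, 4 transcripts, main transcript of 20 exons) was the most abundant of the 10 genes in the RiboMinus data. In the 8 CCE libraries its level had a lowest value of 52.5, a median of 61.1 and a highest value of 68.9 RPKM, from 186 to 442 tags per library. In FH 4 of the 6 libraries held no tag and the other two held 1 tag each, with a highest level of 0.228 RPKM. Every CCE library thus lay far above every FH library. Over cDNA preparations the mean was 61.6 ± 4.26 RPKM in CCE (SD, n = 4) and 0.0607 ± 0.0530 in FH (SD, n = 3). The 4 CCE preparations read 67.1 (CCE1 sheared), 57.6 (CCE2 sheared), 62.5 (CCE1 hydrolysed) and 59.0 RPKM (CCE2 hydrolysed). Rec8 ranked 585 of 22380 coding genes in the pooled CCE tags and 16373 in FH. The pooled tags, 2211 in CCE and 2 in FH, gave a ratio of 841 [232 to 6947]. On the log2(RPKM + 1) scale the difference was -5.88 (FH minus CCE), which understates it because of the pseudocount.

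In the Ribo-Zero libraries Rec8 had 1231 tags in CCE, an RPKM of 15.6 [14.7 to 16.5], and 26 tags in FH, an RPKM of 0.195 [0.128 to 0.286]. The ratio of CCE to FH was 79.9 [54.2 to 123]. Of the Rec8 tags of the CCE Ribo-Zero library 49.6% remained when tags of the same position were counted once, against 47.5% of all its tags, and 79.8% remained in the pooled RiboMinus tags.

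The tags of Rec8 were spread over the whole transcript. All 20 exons of the main transcript held tags in CCE with both kits. Densities in the pooled RiboMinus tags ranged from 284 tags per kb in exon 1 to 1690.3 tags per kb in exon 2, with a median of 1033. With the transcript cut into 3 equal parts, the part at the 3′ end held 41.7% of the tags with RiboMinus and 47.8% with Ribo-Zero, where the medians over 7752 and 7808 coding genes of 1 to 8 kb were 21.1% and 26.8%. Rec8 was thus covered more densely towards its 3′ end than the typical gene. In FH both RiboMinus tags lay in exon 19, and the Ribo-Zero tags touched 9 of the 20 exons, none of them among the first 3.

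Intron tags of Rec8 were read as a measure of unspliced RNA. In CCE the density of tags in the 4611 bases of intron was 8.52% of that in exons with RiboMinus [7.55 to 9.59] and 6.05% with Ribo-Zero [4.99 to 7.28]. The medians over coding genes above an RPKM of 3 were 3.52% and 4.88%, and 82.3% and 60.0% of those genes lay below Rec8. The RiboMinus value pools both ways of fragmentation, which differed, while the Ribo-Zero library was hydrolysed. Sheared CCE libraries held 14 to 35 intron tags of Rec8 beside 186 to 365 exon tags. Hydrolysed ones held 39 to 86 beside 231 to 442. In FH Ribo-Zero, by contrast, Rec8 had 31 intron tags beside its 26 exon tags, an intron density of 71.1% of that in exons [40.8 to 125], where the median over genes was 9.94%. The few Rec8 tags of FH were therefore about as dense in introns as in exons, with an interval that includes equal density. No strand is kept in these tags. The gene next to the 3′ end, Ipo4, an importin on the opposite strand, lies 5 bases past the end of Rec8 and was present in both tissues, at 36.4 ± 9.63 RPKM in CCE (SD, n = 4) and 18.8 ± 1.91 in FH (SD, n = 3). On the other side Irf9, an interferon response factor 8007 bases from the start of Rec8, stood at 3.92 ± 0.320 RPKM in CCE and 2.13 ± 0.195 in FH. Of the further neighbours within 20 kb, the ubiquitin ligase gene Rnf31 was at 4.56 ± 0.946 and 4.04 ± 2.11 RPKM and the membrane protein gene Tm9sf1 at 24.4 ± 2.60 and 20.9 ± 0.214. The level of Rec8 in FH was far below that of these 4 neighbours.

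**Figure D1:**
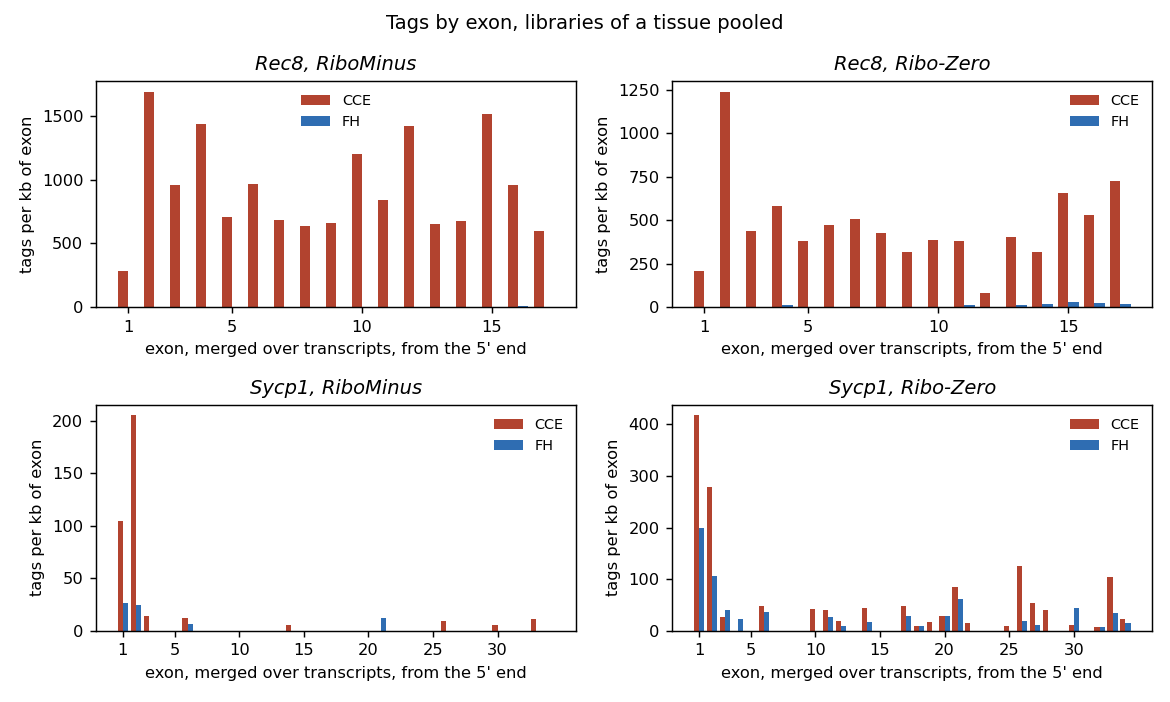
Tags per kb of exon (vertical axis, linear, from 0) along the exons of Rec8 and Sycp1, merged over transcripts and counted from the 5′ end, in pooled RiboMinus libraries (left) and single Ribo-Zero libraries (right) of CCE (red) and FH (blue). Rec8 was covered over its whole length in CCE, while the tags of Sycp1 were densest in its first 2 exons, with 37 of 44 tags there in CCE RiboMinus and 82 of 172 in CCE Ribo-Zero.

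The 5 coding genes whose pattern over the 7 RiboMinus preparations and 2 Ribo-Zero libraries was nearest to that of Rec8 were found by the root mean square distance of their centred log2(RPKM + 1) values. They were Lrrn4 (distance 0.32), Cdkn2b (0.39), Krt18 (0.39), Krt8 (0.45) and Podxl (0.51). Lrrn4 encodes a leucine-rich repeat membrane protein and stood at 50.6 ± 15.9 RPKM in the CCE preparations and 0.0208 ± 0.0360 in FH. Cdkn2b encodes an inhibitor of the cell cycle kinases CDK4 and CDK6 and stood at 89.9 ± 21.6 and 0.990 ± 0.484 RPKM. Krt8 and Krt18 are the keratin pair of simple epithelia, and Podxl encodes a sialomucin of the apical cell surface. Podxl was the most abundant of the 5 in CCE RiboMinus, at 299 ± 34.8 RPKM, against 9.52 ± 1.06 in FH. In CCE Ribo-Zero all 5 were lower than their RiboMinus mean, as Rec8 was, with values from 14.9 RPKM for Cdkn2b to 136 for Krt18. Their choice largely fixed this, since both Ribo-Zero libraries entered the distance. The 9 points are mostly technical and share their RNA, so that this likeness describes these libraries.

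Of the other 9 genes, Mael, Stra8 and Ddx4 formed a middle group in CCE RiboMinus. Mael had a lowest, median and highest library level of 1.39, 2.92 and 8.09 RPKM, from 3 to 19 tags. Stra8 had 0.398, 2.28 and 4.75 RPKM, from 1 to 13 tags, and Ddx4 had 0.804, 2.07 and 3.87 RPKM, from 3 to 16 tags. In FH RiboMinus Stra8 had no tag in any library, and Mael and Ddx4 each had 2 tags in a single library. All CCE libraries lay above all FH libraries for these genes. The preparation means in CCE were 3.36 ± 1.74 RPKM for Mael, 2.31 ± 1.06 for Stra8 and 2.20 ± 0.728 for Ddx4 (SD, n = 4). The preparations of Mael and Stra8, and those of Stra8 and Ddx4, overlapped, so that this order does not differ beyond their spread, while Rec8 lay above Mael in every preparation. The pooled tags of CCE over FH gave a ratio of 27.4 for Mael [7.31 to 230.4] and 31.9 for Ddx4 [8.57 to 268], both on 2 FH tags, and Stra8 was at least 14.5-fold higher in CCE, with 3 tags over the pooled FH libraries taken as the floor.

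Sycp1, Sycp3, Dazl, Smc1b and Tex101 were near the limit of detection in RiboMinus. Their CCE means were 0.996 ± 0.204, 0.580 ± 0.221, 0.366 ± 0.195, 0.0678 ± 0.0789 and 0.150 ± 0.174 RPKM over the 4 preparations. These rested on 44, 10, 15, 4 and 2 pooled tags, so that single libraries ranged from 0 to 10 tags. In FH the pooled libraries held 8 tags of Sycp1, 2 of Sycp3, 2 of Dazl, 1 of Smc1b and none of Tex101. Hormad1 had no tag in any RiboMinus library of either tissue. This allows a level of up to 0.133 RPKM in CCE and 0.175 in FH, and only 68.5% of its exon positions can be reached by a unique tag of 36 nt.

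In the CCE Ribo-Zero library 8 of the 10 genes exceeded an RPKM of 1, compared with 4 in the pooled CCE RiboMinus tags. No gene exceeded it in FH with either kit. An RPKM of 1 was a common level among coding genes in CCE. Sycp1 ranked 11507 of 22380 at 0.973 RPKM in CCE RiboMinus, and 10311 at 1.73 RPKM in CCE Ribo-Zero. Nothing is therefore read from the counts of 8 and 4. Stra8 was now the most abundant, with 876 tags and 16.9 RPKM [15.8 to 18.1], followed by Rec8 at 15.6. Dazl followed at 6.38 RPKM on 552 tags [5.86 to 6.93], Ddx4 at 5.15 on 421 tags [4.67 to 5.66] and Mael at 4.62 on 205 tags [4.01 to 5.30]. Sycp3, Smc1b and Sycp1 stood at 2.23, 1.81 and 1.73 RPKM on 81, 210 and 172 tags. Tex101 had 11 tags, 0.364 RPKM, and Hormad1 had 7 tags, 0.141 RPKM. The intervals of Stra8 and Rec8 overlapped, as did those of Ddx4 and Mael and those of Sycp3, Smc1b and Sycp1.

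The FH Ribo-Zero library, the deepest of all, held 0 tags of Stra8, which allows an RPKM of up to 0.0344, and 2 tags of Mael, 3 of Ddx4 and 4 of Dazl. Stra8 was therefore at least 493-fold higher in CCE Ribo-Zero, against a floor of 3 tags in the FH library. The ratio was 233 for Dazl [90.4 to 857], 237 for Ddx4 [80.4 to 1152], 173 for Mael [47.3 to 1437] and 22.1 for Smc1b [13.3 to 39.4]. Sycp1 and Sycp3 differed far less, by 3.41-fold [2.62 to 4.48] and 4.41-fold [2.88 to 6.90], with 85 and 31 tags in FH. Of the 8 genes over an RPKM of 1 in either library, 6 exceeded 8-fold, where 3.19% of 13108 coding genes did. Since the genes were selected on this contrast, nothing is read from that share, and with 1 library of each tissue there is no replicate check.

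**Figure D2:**
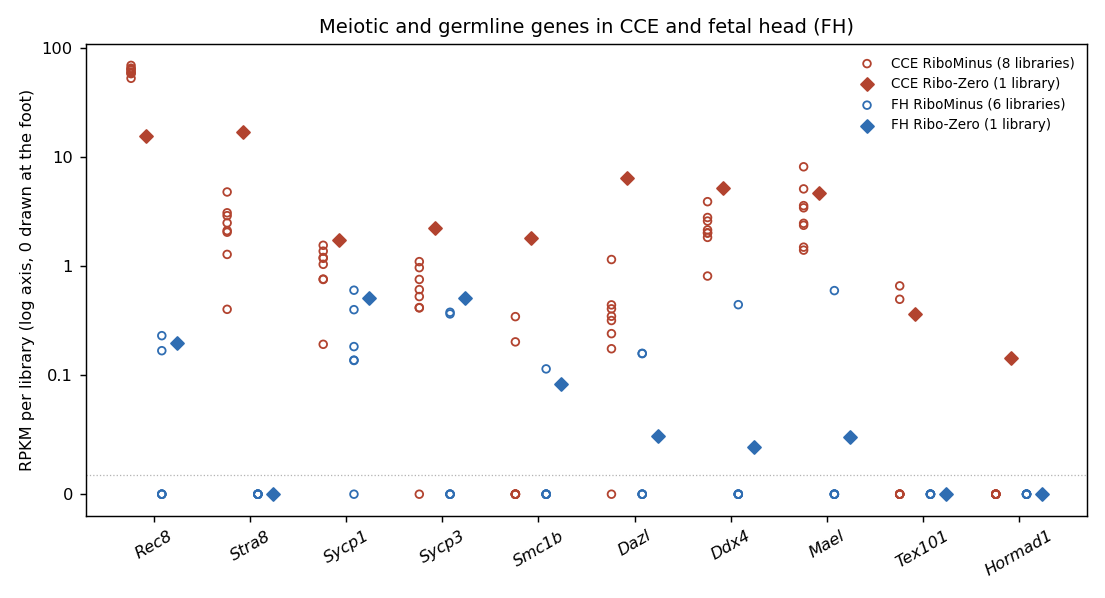
Levels of the 10 genes in RPKM in each library (log axis, with 0 drawn at the foot below the dotted line), CCE in red and FH in blue, open circles for RiboMinus libraries and filled diamonds for Ribo-Zero libraries. Rec8 stood between 52.5 and 68.9 RPKM in the CCE RiboMinus libraries and lower, at 15.6, in Ribo-Zero, while Stra8, Dazl and Smc1b were higher in Ribo-Zero.

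Both synaptonemal complex genes with tags in FH were examined for where these tags lay. Sycp1 (chr3:102622422-102740023, minus strand) had 37 of its 44 CCE RiboMinus tags in the first 2 of 34 exons, which hold 6.84% of its exon bases. In Ribo-Zero it had 82 of 172 tags there in CCE and 36 of 85 in FH. The first exon lies at chr3:102739909-102740023 and the second at chr3:102739467-102739588. The level over these 2 exons was 12.0 RPKM in CCE RiboMinus and 12.1 in CCE Ribo-Zero, and 2.55 and 3.14 in FH. Over the other 32 exons it was 0.166 and 0.971 RPKM in CCE, and 0.0624 and 0.313 in FH. Intron 1 between the 2 exons, 320 bases long, held 9 tags in CCE Ribo-Zero and none in CCE RiboMinus, and the 1000 bases before the annotated start held 1 and none. Most of the RNA read as Sycp1 in CCE RiboMinus thus lay at the 5′ end of the gene, in a pattern that the whole-gene level of 0.973 RPKM does not show. Without the first 2 exons the ratio of CCE to FH in Ribo-Zero was 3.10 [2.16 to 4.48]. No other gene of the 10 with at least 20 tags had over 20.8% of its tags in its first 2 exons.

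Sycp3 (chr10:87922314-87935981, plus strand) shares 660 exon bases with Chpt1, a gene of phospholipid synthesis on the opposite strand, and tags without strand cannot be assigned to one of them. Of the Sycp3 tags 48 of 81 in CCE Ribo-Zero and 24 of 31 in FH lay in the shared bases. Over the remaining 604 bases Sycp3 had 33 tags in CCE and 7 in FH, 1.90 and 0.239 RPKM, and the ratio rose from 4.41 to 7.95 [3.46 to 21.3]. No other gene of the 10 shares exon bases with another annotated gene.

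Of the remaining genes, 5 were covered along their length in CCE Ribo-Zero. Smc1b had tags in all 25 exons in CCE Ribo-Zero but in 7 in FH, where 11 of 16 tags lay in its last 4 exons. Dazl had tags in 11 of 12 exons, Mael in 11 of 12, Ddx4 in 19 of 22 and Stra8 in 9 of 10. Tex101 and Hormad1 had too few tags to tell, with 11 tags in 5 of 6 exons and 7 tags in 3 of 16. The density of intron tags in CCE Ribo-Zero ranged from 1.18% of that in exons for Mael [0.861 to 1.59] to 4.78% for Smc1b [3.86 to 5.91], below the 6.05% of Rec8 and all under the median of 4.88%. Mael carried few intron tags, with 5.07% of coding genes above an RPKM of 3 lower.

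The comparison of the depletion kits in CCE asked whether the 10 genes moved together, and they did not. Rec8 was 0.253 times as high in Ribo-Zero as in RiboMinus [0.236 to 0.271]. Of the other genes, Smc1b was 23.9 times higher in Ribo-Zero [9.18 to 88.4], Dazl 16.7 times [10.1 to 30.1], Stra8 6.99 times [5.34 to 9.30], Sycp3 3.68 times [1.90 to 7.97], Ddx4 2.28 times [1.80 to 2.92] and Sycp1 1.78 times [1.27 to 2.53]. Mael differed by 1.29 [0.985 to 1.72] and Tex101 by 2.50 on 2 and 11 tags [0.546 to 23.2], intervals that include no difference. In RiboMinus Rec8 made up 85.5% of the summed RPKM of the 10 genes, and in Ribo-Zero 28.4%. The libraries differ in RNA source, kit, read length and sequencing centre at once, and these cannot be told apart. The totals behind RPKM differ too. Mitochondrial tags made up 8.23% of the Ribo-Zero total for CCE and 4.54% for FH, while the RiboMinus totals held none. This lowers every ratio of Ribo-Zero to RiboMinus given here, and no correction was made. The interval of Mael, with a lower end of 0.985, includes no difference only on these totals. With mitochondrial tags left out of the Ribo-Zero total, it would lie above no difference.

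The base composition of the genes moved with this difference. Over 9850 coding genes with an RPKM over 3 in either data set, the log2(RPKM + 1) difference of Ribo-Zero minus RiboMinus in CCE had a Spearman rho of -0.498 and a Pearson r of -0.470 with the GC content of the exons. These are correlations across genes of the same libraries, which are not independent replicates. The median difference fell from 0.65 for 934 genes under 42% GC to -0.85 for 3057 genes of at least 54%. In FH the rho was -0.533 over 10074 genes. Rec8, with 56.2% GC, lay above 84.6% of coding genes in GC content, while Sycp1, Sycp3, Hormad1, Dazl and Smc1b, with 34.6% to 39.7%, lay in the lowest 6.72%. Among 1915 genes within 2 points of its GC content, where the median difference was -0.80, Rec8 at -1.92 was lower than all but 8.62%. Stra8, at 51% GC, rose by 2.39 where 2094 genes of like GC had a median of -0.32, and 99.1% of those were lower. Dazl, at 2.42, lay above 95.4% of 262 genes of like GC, with a median of 0.81. Sycp3 (1.01 against 1.08) and Mael (0.30 against 0.15) lay near the median of such genes. Smc1b (1.39 against 0.64), Ddx4 (0.92 against 0.57) and Tex101 (0.25 against -0.52) lay above it, and Sycp1 (0.47 against 1.20) and Hormad1 (0.19 against 1.08) below it, with 24.4% and 13.5% of such genes lower. Unlike the genes compared, Sycp1, Sycp3, Smc1b, Tex101 and Hormad1 were under an RPKM of 3 with both kits. There the pseudocount of 1 shrinks the difference, as for Smc1b, at 1.39 for a ratio of 23.9. Nothing is therefore read from the places of these genes. Stra8, Dazl and Ddx4 exceeded an RPKM of 3 only with Ribo-Zero, and stood at 2.43, 0.381 and 2.26 RPKM in the pooled RiboMinus tags. This largely fixed the sign of their difference, so that nothing is read from their places either. The part of GC content in the levels of Rec8 and Stra8 was not tested.

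**Figure D3:**
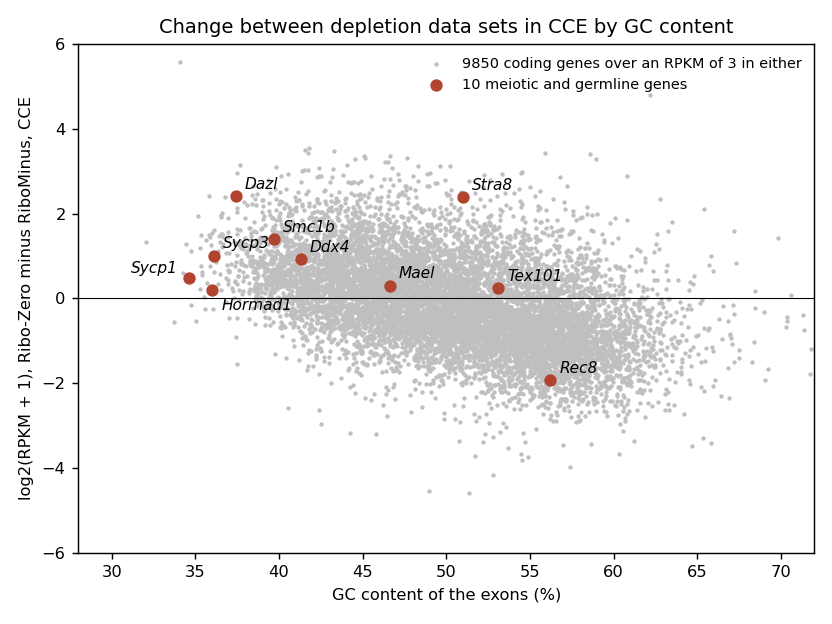
Difference of Ribo-Zero minus RiboMinus in CCE (log2(RPKM + 1), vertical axis) against the GC content of the exons in percent, for 9850 coding genes (grey) and the 10 meiotic and germline genes (red). Genes rich in GC tended to be lower in Ribo-Zero, Rec8 lay at -1.92 at the GC-rich side, and Dazl and Stra8 lay high at 2.42 and 2.39. Dazl and Stra8 exceeded an RPKM of 3 only with Ribo-Zero, which largely fixed the sign of their difference.

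Hydrolysed and sheared preparations of CCE were compared as a contrast on which the genes had not been selected. With limma over the 8750 coding genes whose mean RPKM over all 4 preparations exceeded 3, 1544 genes (17.6%) differed at an adjusted p under 0.05. This fit left out the pairing of preparations by number. The share of 17.6% was not stable, with 5048 genes called without CCE1 sheared, 4253 without CCE2 sheared, 361 without CCE1 hydrolysed, 133 without CCE2 hydrolysed and 1 with the hydrolysed numbers crossed at Nijmegen. Rec8 and Mael passed the filter on low values and the other 8 genes did not. Rec8 stood at 62.4 RPKM in sheared and 60.8 in hydrolysed preparations, a difference of -0.03 on the log2 scale (hydrolysed minus sheared, SE = 0.173, limma adjusted p = 0.90) with an interval from -0.45 to 0.38. Mael stood at 2.38 and 1.43 RPKM in the sheared preparations and at 5.18 and 4.42 in the hydrolysed ones, which do not overlap. Its difference was 1.01 (SE = 0.233, limma adjusted p = 0.0374), with an interval from 0.45 to 1.57. The call for Mael was lost without the preparation CCE2 hydrolysed (limma adjusted p = 0.131), with the Nijmegen libraries alone (0.0615), without a filter (0.0805) and with the numbers of the hydrolysed preparations crossed at Nijmegen (0.087), over a range of alternatives from 0.000206 to 0.131, and without CCE1 hydrolysed or with Vienna-IMP alone Mael was below the filter and had no test. Of the genes below the filter, Stra8 had 14 and 4 tags in sheared preparations (2.6 and 0.821 RPKM) and 24 and 15 in hydrolysed ones (3.34 and 2.47). Ddx4 had 16 and 11 tags (1.88 and 1.43 RPKM) against 27 and 30 (2.37 and 3.13). Sycp1 went the other way, at 0.966 and 1.28 against 0.795 and 0.943 RPKM. The remaining genes had at most 6 tags in a CCE preparation.

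In the test of FH against CCE, limma over 7 preparations compared the 10304 coding genes whose mean RPKM exceeded 3 in a tissue. Of these 34.8% were lower and 20.0% were higher in FH at an adjusted p under 0.05. This fit too left out the pairing and treated the 7 preparations as independent, though those of the same number share their depleted RNA. Its p-values here and below therefore refer to the spread of preparations and not to that of cultures or animals. Among the 10 genes only Rec8 and Mael passed the filter, both through their CCE level, and no test is given for them. Over preparations 7 of the 10 genes were higher in every CCE than in every FH preparation, as were 24.3% of 17724 coding genes with a tag. The selection used this contrast, so that this count supports nothing. The median of all tested genes was -0.34 (FH minus CCE), and -0.09 when libraries were scaled by the median ratio of genes, which moved the calls from 2058 higher and 3583 lower to 2537 and 2534.

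Further genes of the same pathways were taken from lists made by function, with earlier results of these libraries known. Of 24 genes of meiotic chromosomes 5 passed the filter and were lower in FH, where 34.8% of all genes tested were lower and 20.0% higher. Of these, Stag3, Syce1 and Syce2 passed only through their CCE level, so that the filter largely fixed their direction, and only Trip13 and Psmc3ip passed through both tissues. Trip13, an ATPase that remodels HORMAD proteins and also acts in the spindle checkpoint, stood at 16.3 ± 5.39 RPKM in CCE and 3.72 ± 2.66 in FH, a difference of -2.05 (SE = 0.474, limma adjusted p = 0.00591). Syce1, a part of the central element of the synaptonemal complex, stood at 3.40 ± 1.67 and 0.176 ± 0.185 RPKM, a difference of -1.82 (SE = 0.320, limma adjusted p = 0.00133). Syce2, of the same element, differed by -1.02, Stag3, the cohesin subunit that works with REC8, by -0.94, and Psmc3ip, a helper of strand exchange, by -0.78 (limma adjusted p = 0.00949, 0.00593 and 0.0255). The call for Psmc3ip was lost under 6 of 18 alternatives, among them the scale by the median ratio of genes and leaving out either CCE1 hydrolysed, CCE2 hydrolysed, FH1 sheared or FH1 hydrolysed, and that for Syce2 with the Nijmegen libraries alone. Without CCE2 hydrolysed Syce1 was below the filter, and 3 genes of this list were called. The other 19 genes were below the filter. In the single Ribo-Zero libraries Psmc3ip differed little, at 6.65 RPKM in CCE and 5.72 in FH. Trip13, Stag3, Syce1 and Syce2 were lower in FH there too.

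Of 20 genes that act on RNA in germ cells, 3 passed the filter, with 2 lower and 1 higher in FH. Each passed only through the tissue where it was higher, so that the filter largely fixed these directions. Without a filter 6 of 18 were lower and 1 was higher, where 3889 of all 17724 genes were lower and 3652 higher. Tex19.1, which restrains retrotransposons, stood at 5.61 ± 1.01 RPKM in CCE and 0.0412 ± 0.0714 in FH, a difference of -2.66 (SE = 0.169, limma adjusted p = 3.16e-06). Dnd1, an RNA-binding protein needed for germ cell survival, stood at 5.48 ± 1.79 and 0.990 ± 0.683 RPKM, a difference of -1.71 (SE = 0.287, limma adjusted p = 0.00101). Nanos3 was higher in FH, at 3.07 ± 1.23 against 1.57 ± 0.268 RPKM, by 0.62 (limma adjusted p = 0.0394), a call that did not pass under 7 of 18 alternatives, among them leaving out any 1 of the 4 CCE preparations or FH1 hydrolysed, and that had no test under 4 others, where Nanos3 was below the filter, among them leaving out FH1 sheared. Tdrd7 and Ddx25, next by the pooled level in either tissue, were below the filter, at 2.58 ± 0.345 and 1.51 ± 0.476 RPKM in CCE and 2.41 ± 0.688 and 2.39 ± 0.277 in FH.

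Of 13 genes of germ cell specification 3 passed, with 1 lower and 2 higher in FH, again each only through the tissue where it was higher. Lin28a, an RNA-binding protein that blocks let-7 maturation, stood at 15.1 ± 2.44 RPKM in CCE with no tag in FH, a difference of -3.99 (SE = 0.175, limma adjusted p = 6.06e-07). Against a floor of 3 tags over the pooled FH libraries it was at least 177-fold higher in CCE. Kit, the receptor of stem cell factor, was higher in FH at 6.25 ± 0.544 against 2.68 ± 0.652 RPKM, and so was Tfap2c, a transcription factor of early germ cells and of ectoderm, at 3.31 ± 1.00 against 0.827 ± 0.461. Their differences were 0.99 and 1.24 (limma adjusted p = 0.00219 and 0.00175), and that of Kit did not pass with the Nijmegen libraries alone. In the single Ribo-Zero libraries Kit was instead higher in CCE, at 6.44 against 4.16 RPKM, and Tfap2c was about equal, at 2.32 in CCE and 2.30 in FH. Tfap2c was below the filter, and so had no test, with the Nijmegen libraries alone, with the hydrolysed preparations alone and without FH1 sheared. Without CCE2 sheared, 2 genes of this list were called lower, and without a filter 4 of 10 were lower and 3 higher, beside 3889 and 3652 of all 17724 genes. Sohlh2, a factor of early gamete differentiation, was below the filter at 2.89 ± 0.789 RPKM in CCE with no tag in any FH library of either kit, at least 22.8-fold higher in the pooled CCE RiboMinus tags and at least 377-fold in Ribo-Zero. Dmrt1, a factor of the male gonad and germline, stood at 1.40 ± 0.632 and 0.132 ± 0.0626 RPKM.

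**Figure D4:**
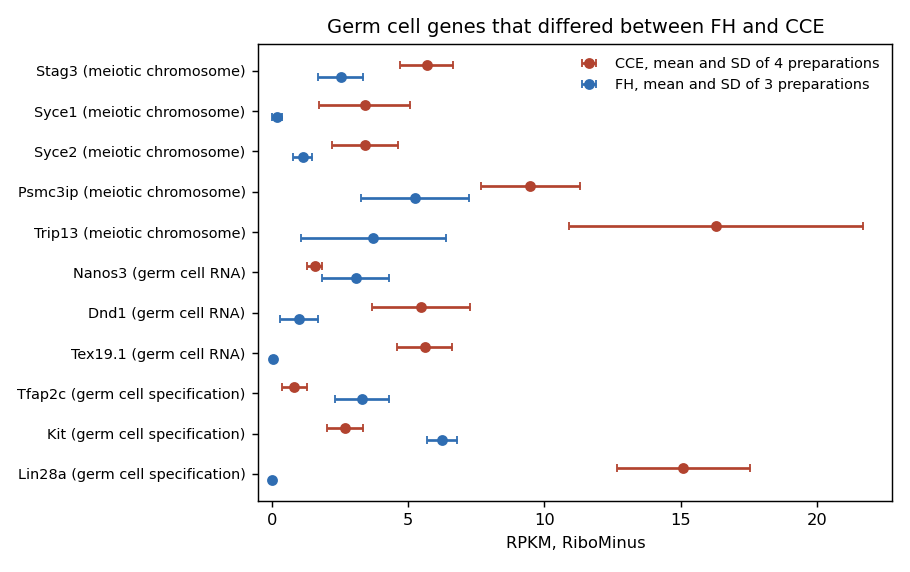
RPKM in RiboMinus (linear axis) of the 11 listed germ cell genes that differed between FH and CCE at a limma adjusted p under 0.05, as mean and SD of 4 CCE (red) and 3 FH (blue) preparations. Tex19.1 and Lin28a were at or near 0 in FH, while Nanos3, Tfap2c and Kit were higher in FH. All but Trip13 and Psmc3ip passed the filter only through the tissue where they were higher, which largely fixed their direction. In the single Ribo-Zero libraries, not drawn here, Kit was higher in CCE and Tfap2c was about equal, while Nanos3 was higher in FH. Psmc3ip differed little there.

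The listed genes were also read in the single Ribo-Zero libraries. Over 8-fold higher in CCE, with an RPKM over 1, were 3 of 12 genes of meiotic chromosomes, 4 of 10 genes of germ cell RNA and 6 of 9 genes of specification, beside the 3.19% of all coding genes. They are named here after their values were seen. The first were Syce1, Tex11 and Dmc1, the second Piwil2, Mov10l1, Rnf17 and Tex19.1, and the third Prdm14, Dppa2, Dppa4, Lin28a, Sohlh2 and Dmrt1. Each of them exceeded an RPKM of 1 only in CCE, so that the filter largely fixed its direction. The lists were made with earlier results of these libraries known, and each tissue had 1 Ribo-Zero library. Nothing is therefore read from these shares. Of the 6 embryonic stem cell markers 5, all but Klf4, were likewise over 8-fold higher in CCE Ribo-Zero. The part of stem cell expression in the levels of the listed genes was not tested. Rnf17, a tudor protein of germ granules, had 985 tags in CCE and 73 in FH, at 6.65 and 0.292 RPKM, against 0.342 RPKM in the pooled CCE RiboMinus tags. Sohlh2 had 671 tags, 9.89 RPKM, and Lin28a 8844 tags, 87.9 RPKM, in CCE, with 0 and 6 tags in FH. Spo11, Mei1, Asz1, Sohlh1, Figla and Nobox, which act in meiosis or in later germ cells, had between 1 and 5 tags in CCE Ribo-Zero and were also chosen after their values were seen.

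The mitotic counterparts were expressed in both tissues. All 15 listed mitotic cohesin genes exceeded an RPKM of 1 in both tissues, 11 were tested, 3 were lower in FH and none was higher, which is no larger a share than the 34.8% of all genes tested, and the median was -0.60 against -0.34. Rad21, which REC8 replaces, stood at 17.9 ± 6.26 RPKM in CCE and 10.4 ± 2.41 in FH, a difference of -0.68 that did not pass (limma adjusted p = 0.084), and Mau2, a cohesin loader, at 38.2 ± 14.3 and 24.3 ± 7.66 (limma adjusted p = 0.129). Pds5a, which regulates cohesin release, Cdca5, which protects cohesion, and Espl1, the protease that cuts cohesin, were the 3 that were lower, by -0.83, -1.39 and -1.28 (limma adjusted p = 0.0167, 0.00916 and 0.00146). With only the hydrolysed preparations, or with fragmentation as a covariate, 9 genes were called lower, where the count over all genes also rose, to 5288 of 10405 and 5052 of 10304. In CCE RiboMinus Rec8 was thus above Rad21 per kb of exon, at 61.6 against 17.9 RPKM, but in CCE Ribo-Zero it was below, at 15.6 against 76.6.

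Genes known to silence germline genes in somatic cells were present in CCE. Of 18 genes 16 were tested, 8 were lower in FH and none was higher, with a median of -0.78, beside 34.8% lower and 20.0% higher over all genes tested. Of the 8, L3mbtl2, Pcgf6 and Dnmt3b passed the filter only through their CCE level. On the scale by the median ratio of genes 6 of 15 were lower and 1 was higher. Dnmt1 and Uhrf1, which copy DNA methylation, stood at 39.0 ± 8.39 and 18.4 ± 2.50 RPKM in CCE and 23.5 ± 2.11 and 7.07 ± 0.860 in FH, differences of -0.69 and -1.26 (limma adjusted p = 0.017 and 0.000358). Yaf2, a part of Polycomb complexes, differed by -0.93 (limma adjusted p = 0.00176), while Rnf2, their ubiquitin ligase, and Ehmt2, a histone methyltransferase, differed by -0.89 and 0.18 without passing (limma adjusted p = 0.0778 and 0.603). Among the 6 genes that respond to retinoic acid and are reported here, which are part of a longer list, 5 were lower in FH and none was higher, with a median of -1.47, beside the same 34.8% and 20.0%, and Hoxb1 passed the filter only through its CCE level. Cyp26a1, which degrades retinoic acid, stood at 55.2 ± 27.8 against 4.09 ± 1.11 RPKM and Dhrs3, which reduces retinal, at 28.1 ± 2.37 against 7.56 ± 0.761. The receptor gene Rarb and Stra6, which encodes a transporter of retinol, differed by -0.80 and -1.18 (limma adjusted p = 0.00317 and 0.000663), and Crabp2, which encodes a binding protein of retinoic acid, differed by 0.07 (SE = 0.46) and did not pass (limma adjusted p = 0.907).

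Promoters of the 10 genes were read as background to their levels, since E2F6, MGA and MAX act through short motifs and the receptors of retinoic acid through others. All 10 genes had an entry among 32851 RefSeq promoters of the build GRCm38.p6, and the 250 bases before the start were searched on both strands. CACGTG, the site of MAX and its partners, was present in 5 genes (Sycp1, Sycp3, Ddx4, Mael and Hormad1) and in 6.02% of all promoters. GGCGGGA, a form of the E2F site, was present in 3 genes (Ddx4, Mael and Hormad1) and in 9.75% of all. AGGTCA, a half-site of nuclear receptors, was present in 3 genes (Stra8, Sycp3 and Hormad1) and in 14.0% of all, and Stra8 held 2 copies. No match overlapped another. Direct repeats of degenerate half-sites with a spacer of 2 (DR2) or 5 (DR5) bases were in none of the 10 windows and in 0.174% and 0.0883% of all. The windows of Rec8, Smc1b, Dazl and Tex101 held none of these motifs. A match is a description of the letters and not a site of binding. The ratio of observed to expected CpG was 1.21 for Smc1b and 1.00 for Ddx4, 0.512 for Rec8 and 0.267 for Stra8, against a median of 0.373. Stra8 was thus the only one of the 10 below that median. The windows of Rec8, the most abundant gene in RiboMinus, of the gene named for retinoic acid, and of 4 genes with CACGTG are shown on GRCm38.p6 from RefSeq, 5′ to 3′ on the strand of the gene and up to the base before the start, with matches to the 3 motifs in capitals.
Rec8, chr14:55617916-55618165, plus strand: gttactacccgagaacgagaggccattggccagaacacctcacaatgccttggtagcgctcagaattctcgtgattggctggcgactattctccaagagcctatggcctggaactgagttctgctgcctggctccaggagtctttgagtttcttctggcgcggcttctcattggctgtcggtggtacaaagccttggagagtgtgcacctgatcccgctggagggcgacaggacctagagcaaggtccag
Stra8, chr6:34920698-34920947, plus strand: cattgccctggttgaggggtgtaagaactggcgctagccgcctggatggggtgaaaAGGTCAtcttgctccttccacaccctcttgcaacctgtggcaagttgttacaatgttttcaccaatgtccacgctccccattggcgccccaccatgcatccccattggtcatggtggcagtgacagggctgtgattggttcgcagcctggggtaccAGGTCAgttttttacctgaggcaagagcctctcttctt
Sycp1, chr3:102936101-102936350, minus strand: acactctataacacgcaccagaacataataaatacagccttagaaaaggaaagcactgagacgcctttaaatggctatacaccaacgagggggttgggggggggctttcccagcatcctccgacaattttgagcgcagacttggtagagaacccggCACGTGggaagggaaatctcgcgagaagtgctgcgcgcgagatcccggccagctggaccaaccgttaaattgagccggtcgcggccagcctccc
Sycp3, chr10:88459337-88459586, plus strand: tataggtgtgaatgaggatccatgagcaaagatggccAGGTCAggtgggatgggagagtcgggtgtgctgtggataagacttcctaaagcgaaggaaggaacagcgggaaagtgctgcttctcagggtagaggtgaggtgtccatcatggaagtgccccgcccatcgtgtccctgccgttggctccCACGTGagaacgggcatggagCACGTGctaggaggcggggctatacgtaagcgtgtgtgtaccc
Ddx4, chr13:112652311-112652560, minus strand: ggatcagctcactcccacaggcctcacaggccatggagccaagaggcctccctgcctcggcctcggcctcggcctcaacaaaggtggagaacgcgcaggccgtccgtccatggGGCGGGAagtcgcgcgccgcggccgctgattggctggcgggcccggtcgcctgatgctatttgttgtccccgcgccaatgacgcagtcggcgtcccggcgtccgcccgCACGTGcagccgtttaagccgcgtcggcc
Mael, chr1:166238745-166238994, minus strand: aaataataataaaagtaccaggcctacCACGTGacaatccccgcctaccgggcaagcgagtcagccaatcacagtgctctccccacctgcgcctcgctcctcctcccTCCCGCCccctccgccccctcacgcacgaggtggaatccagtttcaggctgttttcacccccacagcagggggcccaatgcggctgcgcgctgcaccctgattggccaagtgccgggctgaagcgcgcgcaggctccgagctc
The 2 sites of CACGTG in Sycp3 start 64 and 43 bases before the gene start, that of Ddx4 29 bases, that of Sycp1 94 bases and that of Mael 223 bases.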

How the data were processed

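RNA-seq tags of 14 RiboMinus and 2 Ribo-Zero libraries were used. The authors aligned reads with Bowtie to mm9 (named without a version in the submitters' processing notes) and deposited 1 line for each uniquely aligned tag with its start and end, with no further value used here and no strand. Groups follow the labels, and the assignment of libraries to cDNA preparations follows the table of lanes in the study. Extra lanes and combined samples were left out here.

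A tag was given to a GENCODE M1 gene when its midpoint lay in the merged exons, and RPKM was computed from these counts. The totals used for RPKM included mitochondrial tags for Ribo-Zero only, since the authors had removed them from RiboMinus. Tags of both locations were summed per preparation. The test was that of limma (version 3.58.1, under R 4.3.3) for log2(RPKM + 1) with a trended variance, two-sided with Benjamini-Hochberg adjustment, for genes with a mean RPKM over 3, and the script was tested on simulated data. CCE against FH used 4 and 3 preparations and hydrolysed against sheared CCE 2 and 2. The pairing of preparations by number was in neither main fit. Counting, intervals and plots used matplotlib 3.10.9, scipy 1.17.1, pandas 2.3.3 and numpy 2.4.6 under Python 3.11.15. Older symbols were matched through RefSeq synonyms, and 126 of 126 listed entries were found, with 2 further genes of the retinoic acid list not reported here.

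The 10 genes and the lists were chosen with earlier results of these data known. Named are all 10, the 5 most abundant genes of each list, germ cell genes that were called, the genes nearest to Rec8 in pattern, its neighbours and markers. Other listed genes are named after their values were seen. Numbers of preparations were checked across locations by the log2 ratio of preparation 1 to 2, which gave r = 0.649 for sheared and -0.692 for hydrolysed CCE over 6242 genes and -0.499 for hydrolysed FH over 7827. The hydrolysed numbers may therefore be crossed between locations, and the crossed assignment was run as an alternative. Alternatives were another pseudocount, filters, scale and gene model, repeated positions counted once, single locations, blocks and each preparation left out.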

Additional observations from a re-analysis of the deposited data

How the results depend on the processing

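The count of genes that differed between FH and CCE, 5641, lay between 4033 and 7916 under 18 alternatives, within 1.5 times of the main count, and between 4722 and 5796 when each preparation was left out. With the title number as a replicate block over libraries 1 to 6 it was 6243. The title numbers did not pair the samples, since deviations of same-numbered CCE and FH libraries correlated between -0.659 and 0.541. The count for hydrolysed against sheared CCE, 1544, was less stable. It was 0 without a filter (4546 at an unadjusted p under 0.05 in limma), 0 with Vienna-IMP alone (1814), 318 with Nijmegen alone, 1 with the hydrolysed numbers crossed at Nijmegen (chosen after seeing the data) and between 133 and 5048 with a preparation left out, namely 5048 without CCE1 sheared, 4253 without CCE2 sheared, 361 without CCE1 hydrolysed and 133 without CCE2 hydrolysed. With the CCE number as a replicate block it was 2141, and the calls for Rec8 and Mael did not change. The cause was not tested.

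The level of Rec8 in CCE, 61.6 RPKM, was 68.3 with repeated positions counted once, 76.0 over the longest coding transcript and 90.2 on the scale of tags in coding exons, and between 59.7 and 62.9 with a preparation left out. Members over an RPKM of 1 numbered 8 in place of 4 in the Ribo-Zero library. The difference of Rec8 between hydrolysed and sheared CCE, -0.03 and not called, changed sign to 0.08 without CCE1 sheared, 0.01 without CCE2 hydrolysed and 0.03 with Vienna-IMP alone. The other members rested on 0 to 84 pooled CCE tags each in RiboMinus, which limits their precision.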
